A study of Mus musculus with 4 samples.

Results

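The genes described here are the 4 mouse TOX family genes, Tox, Tox2, Tox3 and Tox4, through the accessible chromatin regions that lie nearest to them. A region was counted for a gene when no other protein-coding gene had its span closer to it, and equal distances were settled by the closer gene end. The genes were selected on the authors' deposited lists of up and down regions, in which Tox had been seen to stand out, so membership in those lists is described here and not tested. By this rule 74 of the 91266 accessible regions of the series belonged to the family. Tox was nearest to 53 regions, Tox2 to 14, Tox3 to 6 and Tox4 to 1.

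ATAC-seq, an assay that marks open chromatin by letting a transposase insert adapters there, was applied to cultured natural killer (NK) cells from the spleen of wild-type C57BL/6 mice. There were 4 samples. The high-dose group (HD IL-15, 2 replicates) and the low-dose group (LD IL-15, 2 replicates) were both kept for 72 hours with interleukin-15 (IL-15), the cytokine on which NK cells depend, and about 75000 cells entered each reaction. The labels give no concentration for either dose and have no group without the cytokine. The tables analysed hold the positions of all regions and, in separate tables, those the authors called up or down between doses. They give neither measurements per sample nor effect sizes, so the depth is unknown and no replicate error can be given. Which dose was the reference is not stated in the sources used here, so the lists keep their deposited names and neither is assigned to a dose. For the labelled cell type, fixed marker lists were looked up. A region lay within 1000 bp of a gene end for all 7 NK cell genes and 0 of 2 myeloid genes. The same held for 2 of 3 T cell genes (Cd3e and Cd4) and 1 of 2 B cell genes (Cd79a). A region overlapped the gene span for all 7 NK cell genes, 1 of 3 T cell, 0 of 2 B cell and 1 of 2 myeloid genes. No share over all genes is given for either count, so these counts do not set NK cells apart. The presence of a region gives no level, so these counts do not measure how many such cells were there.

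TOX proteins bind DNA through a single HMG box, a fold that bends the double helix. TOX is required for the development of CD4 T cells, NK cells and other innate lymphoid cells, and in T cells under chronic stimulation TOX and TOX2 are induced by calcineurin and NFAT and act in the exhausted state. TOX3 has been studied mainly in neurons and breast epithelium, and TOX4 is a widely expressed partner of a nuclear protein phosphatase complex.

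The promoter sequences are given first, because the members differed in whether an accessible region covered them. RefSeq windows (build GRCm38.p6, the assembly also called mm10) run from 250 bases before to 50 bases after an annotated start site. Such windows were found for 3 of the 4 members, and none was used for Tox. The stretches printed are the parts of the Tox2 and Tox4 windows that lie before the first base of the gene, 5′ to 3′ on the plus strand, where capitals mark GGGCGG (a GC box, the site of Sp and KLF factors) on either strand and CCGGAA (the core of ETS factor sites) on either strand. The Tox2 stretch, chr2:163202877-163203057, lay wholly under an accessible region, and the Tox4 stretch, chr14:52278896-52279145, lay under none.
Tox2: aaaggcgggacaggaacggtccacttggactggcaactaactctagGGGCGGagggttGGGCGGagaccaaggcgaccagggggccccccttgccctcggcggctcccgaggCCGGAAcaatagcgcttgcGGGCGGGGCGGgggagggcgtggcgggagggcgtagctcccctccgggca
Tox4: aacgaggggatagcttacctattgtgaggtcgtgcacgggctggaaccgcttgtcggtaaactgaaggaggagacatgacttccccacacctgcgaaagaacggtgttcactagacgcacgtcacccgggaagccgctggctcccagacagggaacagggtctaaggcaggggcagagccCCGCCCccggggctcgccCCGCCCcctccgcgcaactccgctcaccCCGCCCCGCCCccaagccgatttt

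Both stretches are rich in G and C. The 181 bases of Tox2 hold 4 GC boxes, 2 of them overlapping, and 1 ETS core, with 71.8% G and C. The 250 bases of Tox4 hold 4 GC boxes, 2 of them overlapping, with 64.8% G and C. Over whole windows, the 5 Tox2 windows, which overlap in part, held 7, 3, 0, 1 and 1 GC boxes in order of position, the Tox3 window 4 and the Tox4 window 5. A GC box was present in 35.7% of all 32851 promoter windows and an ETS core in 14.9%. The letters TTCNNNGAA, the palindrome bound by STAT factors, which carry the IL-15 signal, were in none of the 7 windows of the 3 genes and in 8.30% of all windows. TGANTCA, the AP-1 site, and TGTGGT, the RUNX site, were in none of the 7 either, against 7.81% and 16.8% of all windows. CCAAT occurred 4 times in the third Tox2 window and 2 times in each of the last 2, which overlap in all but 1 base, and was in 37.4% of all windows. These are matches of letters on both strands and say nothing of binding.

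**Figure D1:**
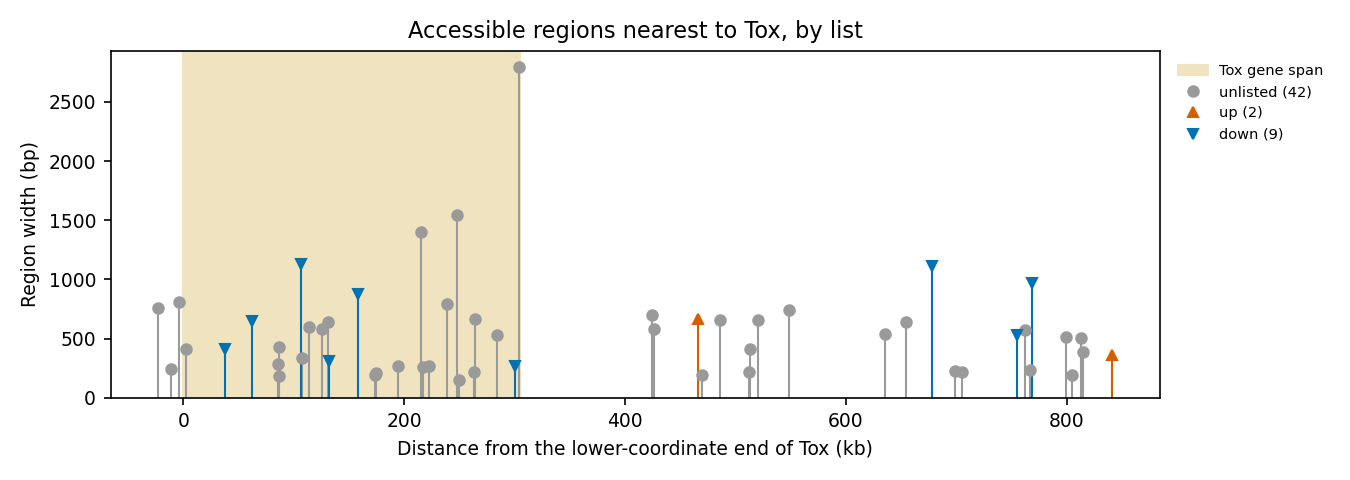
Map of the 53 regions nearest to Tox: the horizontal axis is the distance of each region's centre from the lower-coordinate end of the gene in kb, the height is the region's width in bp, and shading marks the gene span. Of the 6 down regions in the gene, 4 lie below its midpoint. A further 3 down regions lie 372 to 463 kb above the gene, and both up regions lie outside it.

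Tox carried all 9 down regions of the family, together with 2 up regions, and 42 of its 53 regions were in neither list. Down regions were thus 17.0% of the regions of Tox, against 1.40% of all regions of the series (1275 of 91266). Up regions were 3.77% of those of Tox, against 4.21% of all regions (3845 of 91266).

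The Tox gene spans chromosome 4, 6686353 to 6991557, or 305.2 kb. Its strand is not in the tables used, so its ends are called lower and upper by coordinate. Of its 53 regions, 27 overlapped the gene, 3 lay below it and 23 above it. In the gene 6 regions were down and 0 were up, or 22.2% down, where 1.36% of all regions that overlap a protein-coding gene were down and 3.42% were up. Outside the gene 3 of 26 were down (11.5%) and 2 were up (7.69%), where 1.45% of all regions outside protein-coding genes were down and 5.46% were up. None of the 3 regions below the gene was in a list.

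Within the gene, 5 of the 6 down regions fell in a stretch of 121 kb, from 6723542 to 6844645, whose limits were set by those regions. That stretch held 12 regions, so 7 unlisted ones were interspersed with the down ones. In order of position, the first down region measured 411 bp (6723542 to 6723952) and lay 37.2 kb from the lower end of the gene. The next down region, of 651 bp (6748187 to 6748837), followed after 24.2 kb with no region between. The down regions of this stretch did not form one continuous block, since 3 unlisted regions then came before the widest of them.

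The widest down region of Tox measured 1129 bp (6791994 to 6793122), and 93.8% of all regions of the series were narrower. It lay 106 kb from the lower end. An unlisted region of 337 bp began 0.142 kb after it. After 3 more unlisted regions came a down region of 307 bp (6818390 to 6818696), and after a further 25.1 kb without any region the fifth, of 878 bp (6843768 to 6844645), which was 147 kb from the nearer gene end and close to the middle of the gene.

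Split at its midpoint, the gene had 4 down among 12 regions below the midpoint and 2 down among 15 above it, too few to tell these shares apart. Between the last 2 down regions in the gene, a stretch defined by those regions themselves, from 6859845 to 6970920 (111 kb), 12 consecutive regions were in neither list. They included the widest regions of Tox after the one at its upper end, of 1548 and 1400 bp. The sixth down region in the gene, of only 271 bp (6987092 to 6987362), lay after them, 4.2 kb from the upper end. The next region, 1.438 kb on, overlapped the upper end itself, measured 2792 bp (6988801 to 6991592) and was in neither list. It was the widest region of the family, and only 10 regions of the series were at least as wide, itself included.

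Above the gene came 118.9 kb with no region, a gap longer than 97.16% of the gaps between neighbouring regions of the series, whose median was 6906 bp. The 23 regions beyond it were spread to 536 kb from the gene. The first listed one was an up region of 666 bp (7151774 to 7152439), 160 kb from the gene, which overlapped the long non-coding RNA gene Gm33462. The other up region, of 365 bp (7527721 to 7528085), was the outermost of all regions of Tox, at 536 kb. The up regions thus stood at both sides of the 3 distal down regions, with 19 regions between them, of which 16 were unlisted.

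The 3 distal down regions lay within 92.1 kb, a stretch whose limits were set by these regions. One measured 1115 bp (7363511 to 7364625) and was 372 kb above the gene. One measured 529 bp (7441093 to 7441621), at 450 kb. One measured 969 bp (7454643 to 7455611), at 463 kb, 13 kb after the previous one. This stretch held 7 regions, 3 of them down and 4 unlisted. For these distal regions the nearest protein-coding gene is far away in both directions, since Tox and the next gene, Car8, are 1150 kb apart. RNA genes lie nearer: with genes of any biotype allowed, 2 of the 3 were nearest to 8430436N08Rik and 1 to Gm33646, and 0 down regions outside the gene stayed with Tox. Between Tox and Car8 (carbonic anhydrase 8) there were 42 regions, 5 down and 2 up. Of all regions outside protein-coding genes, 1.45% were down and 5.46% were up. Of the 42, 23 were nearest to Tox, 3 of them down, and 19 were nearer to Car8, 2 of them down. The first of these 2 down regions, of 671 bp (7596021 to 7596691), was the first region past the limit of the rule. It lay 604 kb from Tox and 545 kb from Car8. On the other side, Nsmaf is 232 kb from Tox, and 0 of the 13 regions between them were in a list. Only 3 of these 13 were nearest to Tox. So few regions cannot be told apart from the 1.45% down and 5.46% up of all regions outside protein-coding genes.

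Listed regions of Tox were not simply its widest ones. The 9 down regions ranged from 271 to 1129 bp with a median of 651 bp, and its 42 unlisted regions from 151 to 2792 bp with a median of 466.5 bp. Over the series, the median was 537 bp for down regions, 453 bp for up regions and 392 bp for unlisted regions. Of the 32 Tox regions at least as wide as the series median of 400 bp, 7 were down and 1 was up. Of the 21 narrower ones, 2 were down and 1 was up. Among all regions of the series, 2.07% of those at least 400 bp wide and 0.728% of the narrower ones were down, and 5.32% of those at least 400 bp wide were up.

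**Figure D2:**
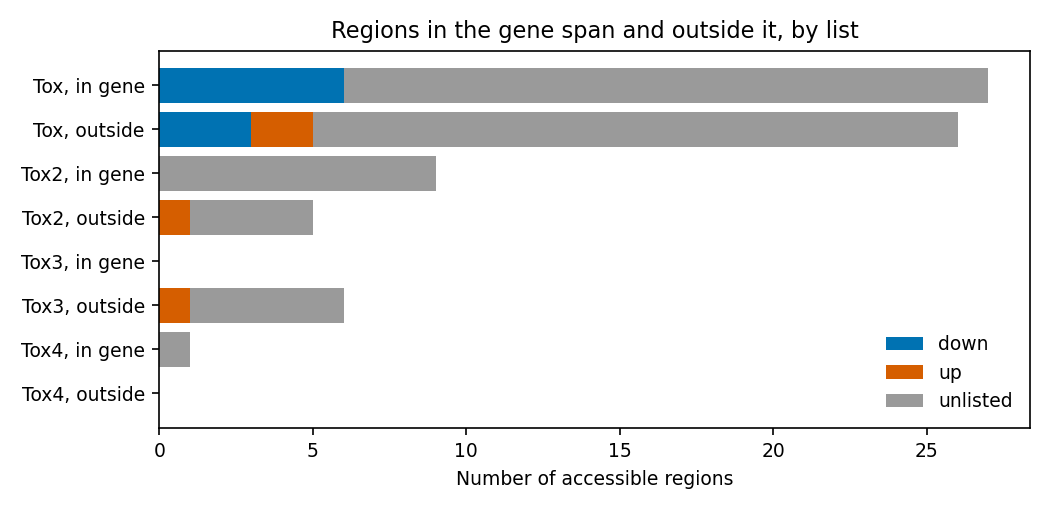
Number of regions nearest to each member (horizontal axis), separately for regions that overlap the gene span and regions outside it, coloured by list. Down regions appear only for Tox, and no bar for regions in a gene holds an up region.

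Across the family, 37 regions overlapped a member's gene and 37 lay outside. Those in a gene comprised 6 down, 0 up and 31 unlisted regions. Those outside comprised 3 down, 4 up and 30 unlisted regions. All 4 up regions of the family (5.41% of 74) therefore lay outside the genes, at 7.53, 36.3, 160 and 536 kb. Over the series, too, up regions were less frequent in genes (3.42% in protein-coding genes and 5.46% outside), and with 37 regions on each side the split cannot be told apart from those shares. The share of up regions over the family was close to the 4.21% of all regions, and the share of down regions, 12.2%, came entirely from Tox.

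**Figure D3:**
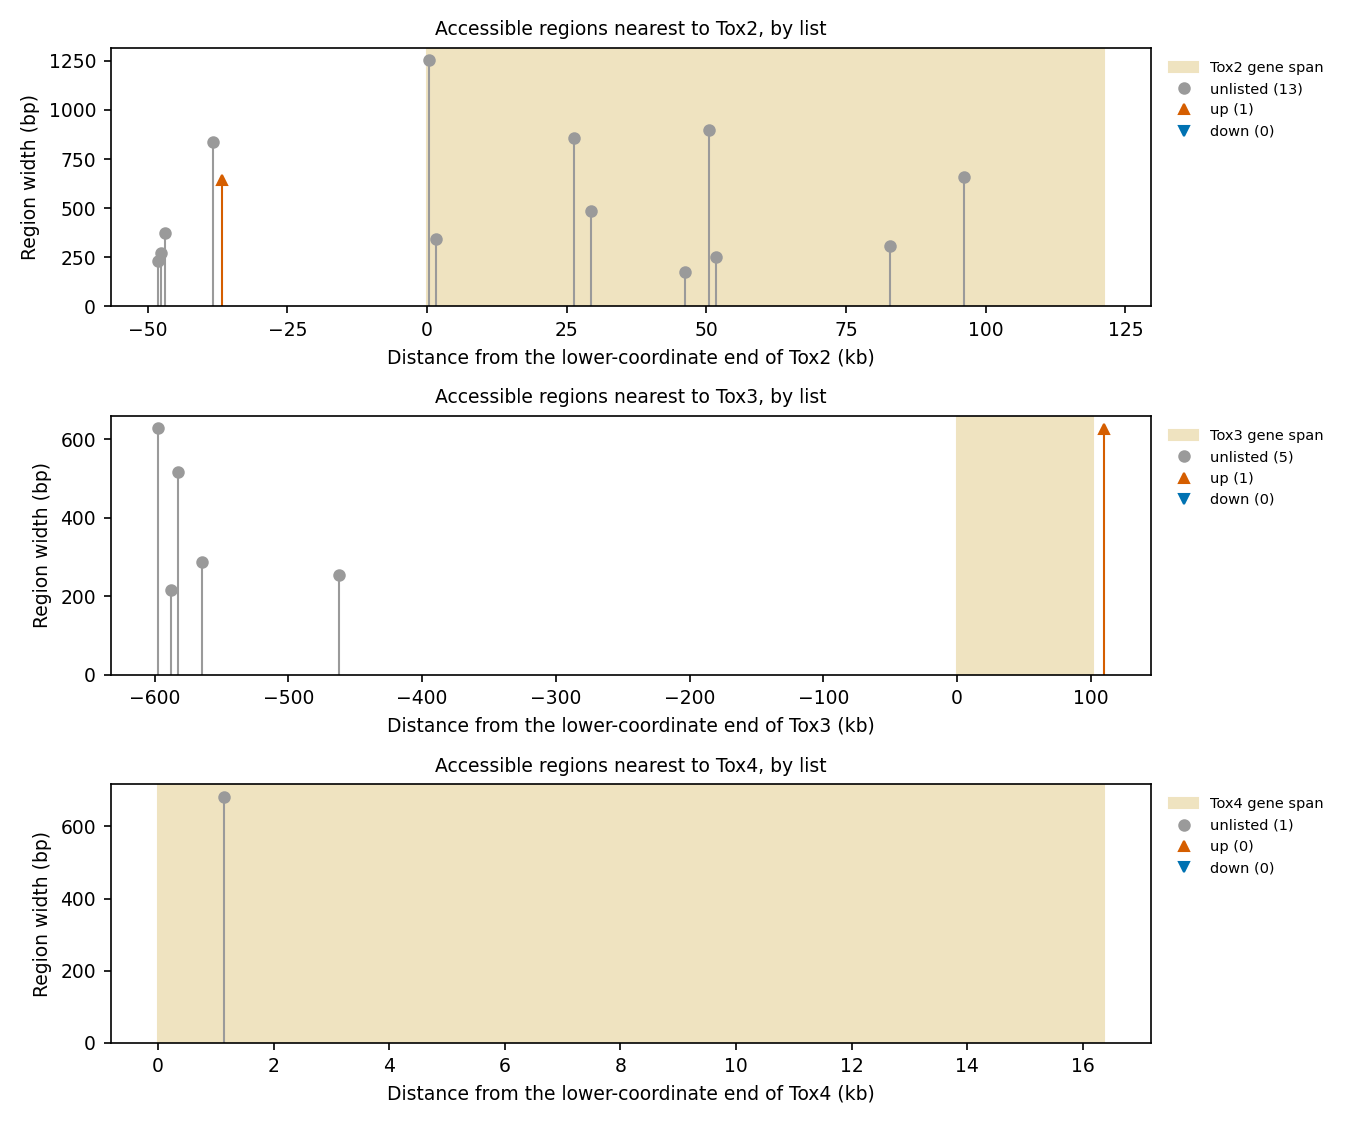
Maps of the regions nearest to Tox2 (top), Tox3 (middle) and Tox4 (bottom), with distance from the lower-coordinate end of each gene in kb on the horizontal axis, region width in bp on the vertical axis and the gene span shaded. Each panel has its own scale; Tox2 has regions along its gene, Tox3 has none in its gene, and Tox4 has a single region near its lower end.

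Tox2, at chromosome 2, 163203058 to 163324172 on the plus strand, had 9 regions in its 121.1 kb and 5 before it. None of the 14 was down and 1 was up, too few regions to tell apart from the 1.40% down and 4.21% up of all regions. The up region measured 643 bp (163166106 to 163166748) and lay 36.3 kb before the gene. It was next to an unlisted region of 836 bp, 0.995 kb away, and 3 narrower unlisted regions of 233 to 372 bp lay 46.7 to 48.1 kb before the gene. No region nearest to Tox2 lay after its upper end, where Jph2 follows at 12.1 kb.

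The widest region of Tox2 covered its start. It measured 1254 bp (163202824 to 163204077), wider than 95.9% of all regions, and was in neither list. It covered all 300 bases of the first 2 RefSeq windows and 142 bases of the third, whose start site is 109 bp beyond it. The remaining 2 Tox2 windows, whose start sites at 163225453 and 163225454 differ by 1 base, were covered by no region, and the nearest region began 3448 and 3447 bp after them. Of the promoter windows in the whole table, 41.6% were overlapped by a region. Along the gene, the other 8 regions ranged from 173 to 899 bp, and the last lay 24.7 kb before the upper end.

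Tox3, at chromosome 8, 90247110 to 90349029 on the minus strand, had no accessible region in its 101.9 kb. Of the 2429 protein-coding genes with spans of at least 100 kb, 304 (12.5%) had none. Its RefSeq window, with 85.3% G and C, higher than 99.9% of all windows, was covered by no region. The widest of its 6 regions measured 628 bp (89649185 to 89649812) and lay 597 kb away. The other 4 unlisted regions, of 215 to 517 bp, also lay below the gene, none closer than 462 kb.

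The region nearest to Tox3 was the only one in a list. It was an up region of 626 bp (90356561 to 90357186), 7.53 kb above the gene and thus before its start, 8309 bp from the annotated start site, and it overlapped the long non-coding RNA gene Gm39219. It stood alone: 571.2 kb without a region lay on one side, the length of a gap exceeded or equalled by 585 of all 91245 gaps, itself included, and 436.7 kb on the other. With RNA not measured here, a region without listed neighbours and 8309 bp from a start site cannot be given to Tox3 rather than to Gm39219.

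Tox4, at chromosome 14, 52279146 to 52295509 on the plus strand, is a gene of 16.36 kb with neighbours that overlap it at both ends, Rab2b and Mettl3. Its single region measured 683 bp (52279940 to 52280622) and was in neither list. It began 794 bp after the start site of Tox4 and 545 bp from that of Rab2b, a gene for a small GTPase transcribed in the opposite direction, so it lies downstream of the one start and upstream of the other. The next regions on either side, also unlisted, belonged to Chd8, a chromatin remodeller, and Mettl3, which methylates adenosine in RNA. A single region was not unusual, since 3658 (22.3%) of the 16387 genes with a region had exactly 1.

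Members also differed in how densely their genes were covered. Tox had 8.85 regions per 100 kb of gene, Tox2 had 7.43 and Tox4 had 6.11, whereas Tox3 had 0. The median over protein-coding genes of at least 100 kb was 3.52. Of those genes, 82.4% had a lower density than Tox and 77.3% a lower density than Tox2. The interval between Tox and Car8 held 3.65 regions per 100 kb and the interval between Tox3 and Sall1, of 1200 kb, held 0.665.

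**Figure D4:**
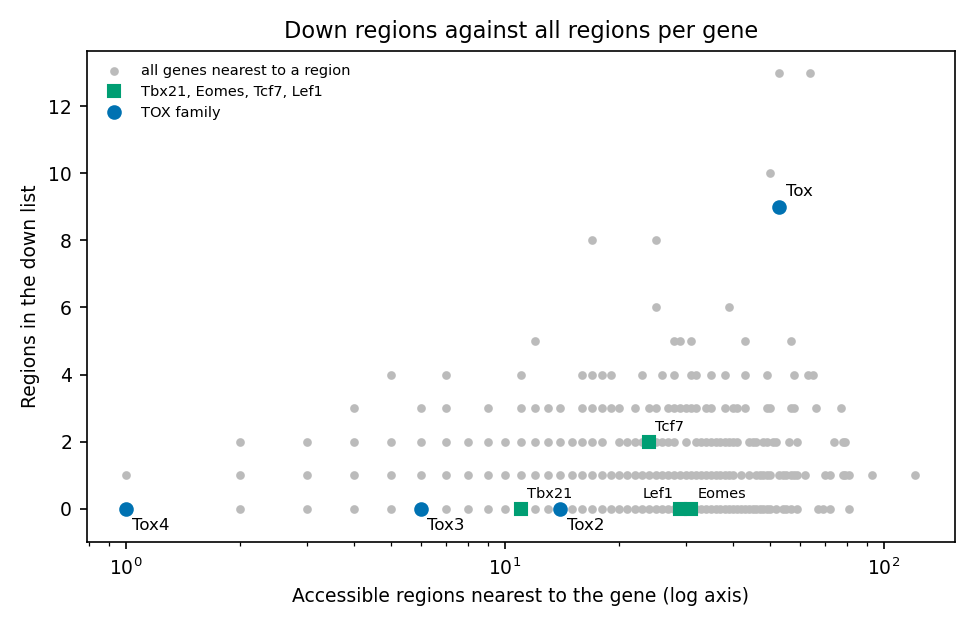
Each point is a combination of the number of regions nearest to a gene (horizontal log axis) and the number of those in the down list (vertical axis) found among the 16387 genes with a region. Tox, with 53 regions and 9 down, lies among the highest points, and Tox2, Tox3, Tox4, Tbx21, Eomes and Lef1 lie at 0.

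Among the 16387 genes with at least 1 region, 4 had 9 or more down regions, Tox included, and 40 had 53 or more regions. Of these 40 genes, 3 had 9 or more down regions. Tox held 0.0581% of all regions of the series and 0.706% of all down regions. Other transcription factor genes of lymphocytes were set beside it. Tbx21 and Eomes, which encode the T-box factors T-bet and EOMES of NK cell identity and maturation, had 42 regions, of which 0 were in a list, a number of regions too small to set against the 1.40% down and 4.21% up of all regions. Tcf7 and Lef1, which encode the HMG-box factors TCF-1 and LEF-1 of lymphoid progenitors, had 53 regions together, the same number as Tox, of which 2 were down and 2 were up (3.77% each, against 1.40% and 4.21% of all regions). These differences are between single loci and were not tested.

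**Figure D5:**
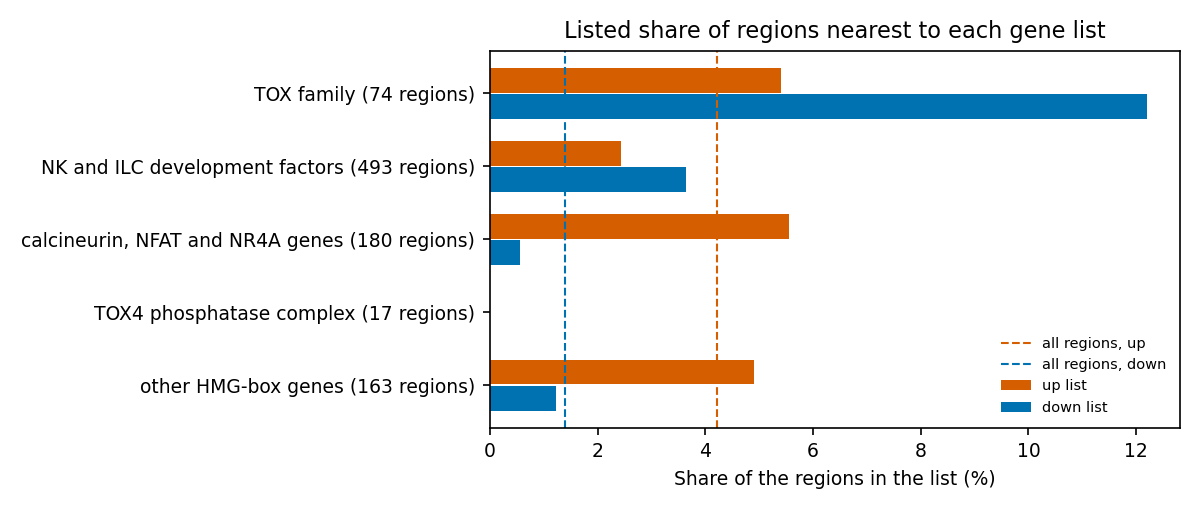
Share of the regions nearest to each gene list that are in the up list and in the down list (horizontal axis, percent), with dashed lines at the shares among all 91266 regions. The TOX family has 12.2% down against 1.40% of all regions, and the phosphatase complex has no listed region.

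Other genes of TOX biology were taken from fixed lists. The first comprised 12 transcription factors of NK and innate lymphoid cell development. Tbx21, Eomes and Tcf7, described above, are among them, and Tcf7 and Lef1 recur in the HMG-box list, so these comparisons share regions. The 12 genes were nearest to 493 regions, of which 18 were down (3.65%) and 12 were up (2.43%), against 1.40% and 4.21% of all regions. At least 1 down region lay nearest to 8 of the 12 genes, compared with 884 of the 16387 genes with a region, but these genes had many more regions than the median of 3 per gene. Ikzf2, for the Ikaros family factor Helios, had 4 down and 1 up among 31 regions. Id2, for the inhibitor of E proteins, had 3 down among 77, and Zeb2 had 3 down among 58. Gata3 had 2 down and 4 up among 46, Ets1 had 2 down and 3 up among 79, and Prdm1, for Blimp-1, had 1 down and 3 up among 44. Tcf7 had 2 down and 1 up among 24 and Runx3 had 1 down among 40. Nfil3, which acts upstream of TOX in innate lymphoid precursors, had 0 listed among 19, and Zbtb16 had 0 among 33. None of these 12 genes had as many down regions as Tox, and the 3 with as many regions as Tox or more, Id2, Ets1 and Zeb2, had 2 or 3.

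The second list held 10 genes of calcineurin, NFAT and NR4A factors, the pathway that induces TOX in stimulated T cells. Its 180 regions included 1 down (0.556%) and 10 up (5.56%). Nfatc2 had 4 up among 27 regions, all in the gene. Ppp3ca, for the catalytic subunit of calcineurin, had 3 up among 49. Nr4a3 had 2 up among 21, Nr4a2 had 1 up among 11, and Nr4a1 had 1 down among 7. The other 5 genes had none. The shares over all regions were 1.40% down and 4.21% up, and up regions outnumbered down regions in the series as a whole too.

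The partners of TOX4 in the phosphatase complex, Ppp1r10, Wdr82, Ppp1ca, Ppp1cb and Ppp1cc, had 17 regions, from 1 to 5 each, where the median gene with a region had 3. None of the 17 was in a list, a number of regions too small to set against the 1.40% down and 4.21% up of all regions. Among 10 other HMG-box genes, 163 regions included 2 down (1.23%), both of Tcf7, and 8 up (4.91%), near the 1.40% and 4.21% of all regions. Sox5 contributed 6 of these up regions among its 59, and Lef1 and Tcf7 1 each. Ssrp1 was nearest to no region, and the other 6 genes, among them Hmgb1 and Hmgb2, had none in a list.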

How the data were processed

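ATAC-seq had been run on 4 samples, 2 per dose, grouped by the dose in their titles. Per the submitters' processing notes, the tools were BWA, ArchR, MACS2 and HOMER 4.11.1 and the build mm10; their roles, and whether peaks were called per sample, are not given in the sources used here. The 3 tables deposited by the authors hold positions only (0 columns of values per sample), so the planned comparison of the doses was not possible and no test was run. Starts in the table of all regions are 0-based; with 1 added, every listed region matched one of that table exactly. Regions were assigned to the nearest of 21900 protein-coding genes of the RefSeq table for GRCm38.p6, with Python 3.11.15, pandas 2.3.3 and NumPy 2.4.6. The assignment was tested on simulated data. Gaps are counted between neighbouring regions of a chromosome. Promoter windows are those of RefSeq (250 bases before to 50 after a start). Exons and introns were not annotated. The members, gene lists and motifs were chosen with earlier results of these data known. The text names, by rule, every listed region of a member, the widest region and the one nearest a start site, the neighbouring genes, and each gene of the fixed lists with a listed region; other features it names were chosen after their values were seen. Regions are not replicates, and neighbouring ones are not independent. Other rules of assignment were tried.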

Additional observations from a re-analysis of the deposited data

How the results depend on the processing

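No paired analysis was possible because the tables give positions and no measurement of any single sample. No alternative normalization or filter on low counts was run and no replicate could be left out either. In all, 50 alternatives were computed for 8 results, and 27 stayed within 1.5 times the reported count. The 9 down regions of Tox became 6 or 7 in the alternatives that changed their number. A fall from 9 to 6 lies at the limit of 1.5 times and is counted as within it. The family's 9 down regions, which are the same regions, likewise became 6 or 7.

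The number of regions and of up regions depended on how far from a gene a region may lie. For the family, 74 regions became 40 with genes of any biotype, 37 in the gene spans, 39 within 10 kb, 46 within 100 kb and 43 with regions of at least the median width. For Tox, 53 became 30, 27, 28, 30 and 32 in the same order, and 30 when every region within 100 kb was counted. The 4 up regions of the family became 0 with genes of any biotype, 0 in the gene spans, 1 within 10 kb and 2 within 100 kb, also when every region within 100 kb was counted. The 2 up regions of Tox became 0 in each of these 5 settings and 1 with regions of at least the median width. These falls follow from how the rules are built. Each leaves out regions far from the gene, narrow regions or regions closer to a gene that is not protein-coding. Among the 3 members with a RefSeq window (Tox was not assessed), a region overlapped a window of 1, Tox2, and lay within 1 kb of a start site for 2, Tox2 and Tox4. Counting every region within 100 kb of Tox2 added 1 down region, nearest to Oser1.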

Other observations

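With genes of any biotype allowed, 23 of the 53 regions of Tox passed to 4 long non-coding RNA genes above it. Among these regions were 3 down regions and both up regions. The 27 regions in the gene and 3 below it stayed with Tox. Of the distal down regions, 2 were then nearest to 8430436N08Rik and 1 to Gm33646. The up region of Tox2 passed to Gm11454 and that of Tox3 to Gm39219, so that 0 up regions stayed with the family, and the 5 distal regions of Tox3 passed to Gm24212, a small nucleolar RNA gene. The 6 down regions in the Tox gene were the only listed regions of the family that every rule of assignment tried gave to a member, apart from the 2 of them narrower than the median when a minimum width was set. This follows largely from how the rules are built. The rule that requires overlap with the gene span leaves out every listed region outside a gene.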
